A study of Mus musculus with 17 samples.

Results

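Variable promoters are promoter sites of open chromatin that carried a peak in some of the samples but not in all of them. They were chosen by peak presence over 17 ATAC-seq peak lists of mouse bone marrow-derived macrophages (BMDMs), taken before and after lipopolysaccharide (LPS). From each list the best 24389 peaks by p-value were used, the number held by the shortest list, and peaks of different lists that shared at least 1 bp were merged into 41150 sites. A member lay at most 1 kb from where a protein-coding transcript begins, its transcription start site (TSS), and carried a peak in 2 to 12 of the 17 lists. This held for 2004 sites, nearest to the TSSs of 1896 genes, out of 11047 promoter sites seen in at least 2 lists. The other 9043 promoter sites carried a peak in 13 to 17 lists and are called constant promoters here. Because peak presence selected the members, all counts of peaks over time are descriptions, with no test. Tests were made only where sites were picked in one genotype and read in the other, and the upper limit of 12 lists counts the read lists too, so these tests are also given without it.

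ATAC-seq maps open chromatin by letting the Tn5 transposase cut accessible DNA. Bone marrow came from male C57Bl6/J mice of 6 to 12 weeks and was differentiated for 7 days in L929-conditioned medium, a source of macrophage colony-stimulating factor. Wild-type (WT) cells gave 3 lists at 0 h, 2 at 1 h and 3 at 18 h of 100 ng/ml LPS, and 1 of the 2 lists at 1 h is labelled replicate 1-2. Nur77-deficient (KO) cells gave 3 lists at each of these times. Nur77 is the nuclear receptor encoded by Nr4a1. The KO is a whole-body deletion of floxed Nr4a1 made with CMV-Cre, and Cre was bred out afterwards. The genotype label of these samples reads only cre, so they were grouped by their titles. WT mice were littermates.

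LPS is a component of the outer membrane of Gram-negative bacteria that macrophages sense through Toll-like receptor 4. The receptor activates the NF-kB and AP-1 transcription factors within minutes, and interferon produced in response then acts on the same cells through interferon-stimulated response elements (ISRE). Promoters of housekeeping genes are rich in CpG dinucleotides and are usually open at all times. Promoters of inducible genes often lack a CpG island and become accessible only when such factors and chromatin remodellers are recruited.

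Sequences around the summits of 11 members are shown, because most hold letters of the motifs listed here. The printed window of Adhfe1 holds none. Among the sites whose sequence could be shown, the best-ranked member of each of 6 time classes was taken that left at least 100 bp after annotated UTR was trimmed, and 5 members of the gene lists (Cxcl2, Nos2, Mmp9, Myc and Itgax) were added after their values were seen. All are GRCm38 (mm10) sequence, written 5′ to 3′ on the strand of the gene, and capitals mark motif letters. The motifs were AP-1 (TGAGTCA or TGACTCA), C/EBP (TTGCNNAA or TTACNNAA), PU.1 (GAGGAAGT), SP (GGGCGGG), NFY (CCAAT), E-box (CACGTG) and the TATA box (TATAAA), with NF-kB and ISRE by name, all on both strands, so that CCCGCCC is SP on the other strand. Gained promoters come first. Ccl5, a chemokine for T cells and monocytes, is on the minus strand at chr11:83530489-83530677. Cxcl2, a neutrophil chemokine, is on the plus strand at chr5:90903713-90903900, and its 2 NF-kB matches overlap in 1 palindrome. Nos2, the inducible nitric oxide synthase, is on the plus strand at chr11:78920580-78920780. Mmp9, a secreted gelatinase, is on the plus strand at chr2:164947577-164947777. Adhfe1, a mitochondrial hydroxyacid transhydrogenase, is on the plus strand at chr1:9548063-9548192. Ifit1bl1, of the interferon-induced IFIT family, is on the minus strand at chr19:34602025-34602225.
Ccl5: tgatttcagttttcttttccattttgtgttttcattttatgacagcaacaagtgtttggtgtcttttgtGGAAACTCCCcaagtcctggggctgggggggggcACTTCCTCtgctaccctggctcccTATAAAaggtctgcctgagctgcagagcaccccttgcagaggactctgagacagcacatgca
Cxcl2: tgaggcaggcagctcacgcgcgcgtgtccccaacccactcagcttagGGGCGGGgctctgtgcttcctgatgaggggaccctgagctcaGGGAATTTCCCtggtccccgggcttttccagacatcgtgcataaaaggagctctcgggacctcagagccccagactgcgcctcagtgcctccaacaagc
Nos2: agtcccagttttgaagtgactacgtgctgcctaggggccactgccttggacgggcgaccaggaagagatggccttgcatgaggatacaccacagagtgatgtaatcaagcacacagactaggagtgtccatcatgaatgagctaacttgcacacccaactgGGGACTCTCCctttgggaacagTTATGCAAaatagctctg
Mmp9: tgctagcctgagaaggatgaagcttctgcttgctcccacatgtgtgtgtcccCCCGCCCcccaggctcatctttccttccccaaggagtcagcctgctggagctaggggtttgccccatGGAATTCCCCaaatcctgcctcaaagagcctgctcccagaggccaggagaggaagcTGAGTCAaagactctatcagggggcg
Adhfe1: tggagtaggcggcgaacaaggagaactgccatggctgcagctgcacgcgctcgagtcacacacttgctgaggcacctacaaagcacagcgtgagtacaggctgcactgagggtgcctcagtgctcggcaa
Ifit1bl1: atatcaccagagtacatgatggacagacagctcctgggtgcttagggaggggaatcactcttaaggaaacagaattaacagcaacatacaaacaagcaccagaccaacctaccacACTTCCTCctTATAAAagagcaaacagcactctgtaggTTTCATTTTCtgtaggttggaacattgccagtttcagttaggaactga

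Lost promoters follow. Traf3ip3, which encodes a TRAF3-binding protein of leukocytes, is on the minus strand at chr1:193201518-193201699. Mef2c, a MADS-box transcription factor, is on the plus strand at chr13:83572094-83572294. Amz1, a metallopeptidase, is on the plus strand at chr5:140735354-140735554. Myc, the growth-associated transcription factor, is on the plus strand at chr15:61985254-61985420. Itgax, which encodes the integrin CD11c, is on the plus strand at chr7:128129294-128129494.
Traf3ip3: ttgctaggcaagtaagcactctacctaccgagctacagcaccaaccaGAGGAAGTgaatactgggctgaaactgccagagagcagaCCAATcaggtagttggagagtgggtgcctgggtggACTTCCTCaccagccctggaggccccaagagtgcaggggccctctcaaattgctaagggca
Mef2c: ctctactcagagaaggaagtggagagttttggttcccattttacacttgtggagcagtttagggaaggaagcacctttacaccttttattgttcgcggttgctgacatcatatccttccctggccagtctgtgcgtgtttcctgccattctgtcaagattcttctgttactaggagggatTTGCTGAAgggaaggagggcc
Amz1: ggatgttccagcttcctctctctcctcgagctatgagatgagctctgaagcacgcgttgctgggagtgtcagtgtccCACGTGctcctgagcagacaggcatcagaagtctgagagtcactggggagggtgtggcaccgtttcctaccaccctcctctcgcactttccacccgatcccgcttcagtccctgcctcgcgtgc
Myc: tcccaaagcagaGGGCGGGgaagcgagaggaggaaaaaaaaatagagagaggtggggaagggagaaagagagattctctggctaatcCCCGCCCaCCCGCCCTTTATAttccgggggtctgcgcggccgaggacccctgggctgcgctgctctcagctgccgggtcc
Itgax: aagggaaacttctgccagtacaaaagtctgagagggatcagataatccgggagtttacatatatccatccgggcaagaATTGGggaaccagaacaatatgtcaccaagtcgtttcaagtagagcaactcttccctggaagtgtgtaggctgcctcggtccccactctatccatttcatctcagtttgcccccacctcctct

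The lists were uneven in size and depth. They held 24389 to 71456 peak intervals, and a depth index recovered from the fold and p-value columns ran from 0.382 to 9.75 background reads per kb, which is why ranks inside a list were compared and not scores. Of 10 macrophage marker genes, 8 to 9 had a promoter peak in every list (Mrc1 had none in any), against 1 to 2 of 10 T cell markers, 0 to 1 B cell markers, 0 to 1 fibroblast markers, 1 to 3 neutrophil markers and 0 to 4 dendritic cell markers. The list of KO 18 h replicate 1 stood apart, with a median peak width of 167 bp against 338 to 1241 bp in the other 16. No 2 lists were identical. The sources do not say whether the samples of a group came from separate animals or cultures, so p-values measure only the spread between these samples, which may be technical.

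Fewer variable promoters carried a peak after LPS than before it. In WT, 1084, 966 and 1224 of the 2004 members carried a peak at 0 h, 715 (replicate 1-2) and 719 at 1 h, and 963, 795 and 734 at 18 h. In KO, the numbers were 1145, 1026 and 944 at 0 h, 687, 738 and 715 at 1 h, and 405 (replicate 1), 801 and 629 at 18 h. Every list at 0 h was above every list at 1 h and at 18 h of the same genotype. The WT lists at 18 h were above those at 1 h, and the KO lists at 18 h lay on both sides of theirs. Constant promoters also stood lower at 1 h, so a fall at 1 h was not particular to the members. Constant promoters carried a peak in 98.4% to 99.9% of sites at 0 h, 92.8% to 97.7% at 1 h and 81.0% to 99.7% at 18 h. Their median rank was 5816 to 6198 at 0 h and 6913 to 7073 at 1 h. Variable sites away from promoters, 14894 in all, went another way. Between 29.1% and 38.1% of them carried a peak in the lists at 0 h, 30.2% to 39.1% at 1 h and 31.8% to 40.3% at 18 h, so the 3 ranges overlapped. In WT alone these sites were lower at 1 h, at 30.2% and 36.1%, than at 0 h, at 36.3%, 36.6% and 38.1%. In KO the lists at 0 h overlapped those of both later times.

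As a share of all variable sites with a peak, the members were 15.0% to 17.9% in the lists at 0 h and 10.5% to 13.7% at 1 h, again without overlap. At 18 h the share was 7.87% to 14.3%, and the lowest was KO 18 h replicate 1. Depth differed between times too, and its part in these counts was not tested. The WT lists had 5.11 to 9.75 background reads per kb at 0 h, and 0.382 and 1.61 at 1 h, so depth and time went together there. In KO the depths at 0 and 1 h overlapped. KO 0 h replicate 3, at 0.72, carried 944 members, and KO 1 h replicate 1, at 4.14, carried 687. Inside a group, the count rose with depth in WT at 0 and 18 h and in KO at 0 h. For KO at 0 h it was 944, 1026 and 1145 at 0.72, 1.53 and 7.65. In WT at 1 h it was 715 and 719 at 0.382 and 1.61. It fell with depth in KO at 1 h, with 738, 715 and 687 at 0.593, 1.22 and 4.14, and KO at 18 h had no such order.

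**Figure D1:**
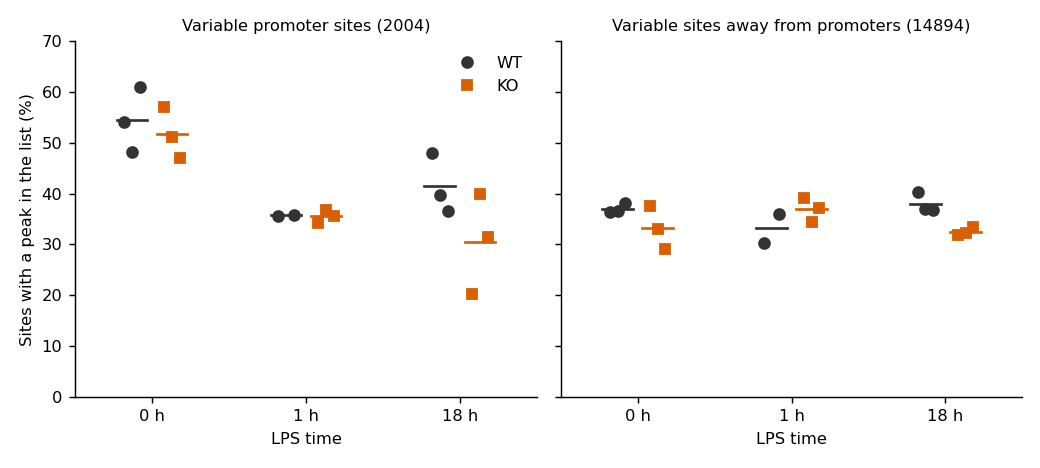
Share of sites with a peak in each list (y axis, %) by LPS time (x axis), for the 2004 variable promoter sites on the left and the 14894 variable sites away from promoters on the right. Each point is 1 list, circles are WT, squares are KO and lines are group means. All lists at 0 h (47.1% to 61.1%) lie above all lists at 1 h (34.3% to 36.8%) on the left. On the right the times overlap over both genotypes, while in WT alone the lists at 0 h lie above those at 1 h.

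Members ranked low among the peaks that were used. Their median rank inside a list was 16664 to 19966 of 24389, against 5816 to 7073 for constant promoters, where rank 1 is the smallest p-value. In the whole deposited lists 715 to 1965 of the 2004 members carried a peak. In 12 lists most members absent from the best peaks had a peak further down. In the other 5 most had none, from 63.8% of the absences in KO 18 h replicate 3 to 100% in WT 1 h replicate 1-2, whose whole list was used. At the edges of the selection there were 520 promoter sites with a peak in 1 list and 224 with a peak in 2, and 248 with a peak in 12 lists and 272 with a peak in 13.

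Time classes were set over both genotypes. A member was carried at a time when at most 1 list of that time lacked the peak, and lacking when at most 1 list had it, over 6 lists at 0 h, 5 at 1 h and 6 at 18 h. By this rule 179 members (8.93%) were gained after LPS and 316 (15.8%) were lost at 1 h, at 18 h or at both, while 1509 (75.3%) were intermediate. Over all 34141 sites in at least 2 lists, constant ones included, the shares were 7.1% gained and 6.05% lost. Over the variable sites away from promoters they were 15.1% and 10.9%. Gained sites thus made up a smaller share of members than of other variable sites, and lost sites a larger share. The share lost over all sites includes constant sites that lacked a peak only at 1 h. The upper limit on lists kept such sites out of the members. The excess of losses was not seen under stricter rules. Among members that were all-or-none, 54 were gained and 49 were lost. Where absence was asked of the whole deposited lists, with 1 list still allowed, 15 were gained and 5 lost. In the other settings tried, the ratio of lost to gained members ran from 1.67 (best 10000 peaks) to 5.07 (peaks covering at least 0.5 of a site).

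Among gained members, 80 (3.99%, background over all sites 3.19%) were open early only, at 1 h. A further 49 (2.45%, background 1.57%) were gained early and kept at 18 h, and 50 (2.5%, background 2.34%) were gained late only. Among lost members, 99 (4.94%, background 2.08%) were lost early and regained at 18 h. A further 98 (4.89%, background 2.04%) were lost early and stayed lost, and 119 (5.94%, background 1.93%) were lost late. The upper limit on lists with a peak removed sites only from the class lost early and regained. Over all sites 710 met that class, against 99 members and 484 variable sites away from promoters. Its background thus includes constant sites, which its member count leaves out. Away from promoters, 6.77% of variable sites were early only. No order among the 3 lost classes is read from these counts. Leaving out KO 18 h replicate 1 gave 74 late only, 148 lost early and regained, 104 lost early and staying lost and 123 lost late members, and leaving out KO 0 h replicate 3 gave 112, 133 and 120 in the 3 lost classes.

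**Figure D2:**
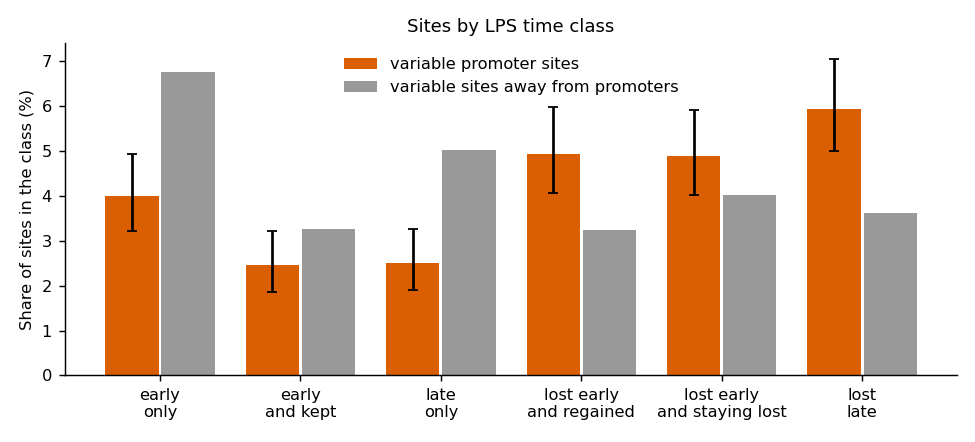
Share of sites (y axis, %) in each of 6 time classes (x axis). Orange bars are the 2004 variable promoter sites with 95% Wilson intervals, which cover counting over sites only, and grey bars are the 14894 variable sites away from promoters. The 3 gained classes are lower and the 3 lost classes higher at promoters.

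Of the 49 promoters gained early and kept, 4 belonged to the cytokine and chemokine list, 4 to the interferon-induced list and 3 to the list of LPS-induced effectors. Ccl5 had no peak in any deposited list at 0 h, of either genotype. Its ranks in WT were 5513 and 3104 at 1 h and 2609, 2279 and 3728 at 18 h. In KO they were 3507, 4841 and 3293 at 1 h and 3519, 3707 and 1011 at 18 h. Ccl5 was the only member of its class with no peak at all in any whole list at 0 h, so its absence at 0 h did not depend on the number of peaks used. The merged site was 10360 bp long and the summit lay 59 bp upstream of the TSS, in the sequence printed above with its NF-kB, PU.1 and TATA letters.

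The Cxcl2 promoter was already listed at 0 h but much lower. Its ranks in WT were 26803, 21031 and 27181 at 0 h, 736 and 889 at 1 h, and 17435, 17935 and 20810 at 18 h. In KO they were 29201, 27270 and none at 0 h, 1440, 2017 and 1580 at 1 h, and 24776, 18385 and 10690 at 18 h. In both genotypes the 3 times followed the order 1 h, 18 h, 0 h without overlap, except that KO at 18 h reached past the last rank used in replicate 1. Nos2 moved in the other order. Its WT ranks were 42521, 45452 and 43491 at 0 h, 16348 and 20468 at 1 h, and 11830, 7160 and 10091 at 18 h. Its KO ranks were 39658, none and none at 0 h, 24201, 16225 and 16211 at 1 h, and 3885, 7902 and 5951 at 18 h. Both genotypes thus had this Nos2 site highest at 18 h, with no overlap between times. A further variable promoter site of Nos2 was intermediate.

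The other best-ranked promoters of this class were those of Slc26a8 (an anion transporter), Zfp811 (a zinc finger protein), Ifi205 and Gbp2 (interferon-induced), Orm1 (an acute-phase plasma protein) and Arhgef19 (a guanine nucleotide exchange factor). Gbp2 ranked 40618, 37510 and 29758 in WT at 0 h, 10064 and 9104 at 1 h, and 7326, 10029 and 7873 at 18 h. In KO it ranked 27295, 21150 and none at 0 h, 8033, 13340 and 10400 at 1 h, and 15188, 9917 and 8007 at 18 h. All lists after LPS were above all lists at 0 h. Further list genes with a promoter gained early and kept were Il1rn (the interleukin-1 receptor antagonist), Il1a, Traf1 and Tnip1 (signalling adaptors of the NF-kB pathway), Cd69 (an early activation antigen), Ifi203, Slfn8 and Ciita (the activator of MHC class II genes). For Il1rn, Tnip1, Traf1, Arhgef19 and Slc26a8 the same gene also had a constant promoter elsewhere. The promoters of Camp and Ms4a1, which serve here as neutrophil and B cell markers, were in this class too, in 10 lists each.

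Promoters open early only included those of Il1b and Mmp9. Il1b, the precursor of a central inflammatory cytokine, ranked 48709, 56094 and 62422 in WT at 0 h, 7038 and 7995 at 1 h, and 40739, 42517 and 36404 at 18 h. In KO it ranked 61795, none and none at 0 h, 17031, 11709 and 13831 at 1 h, and none, 23454 and 29405 at 18 h. The lists at 1 h stood above all others in both genotypes. Mmp9 ranked 17614 and 11310 in WT at 1 h and 11998, 11739 and 12291 in KO at 1 h. At the other times it ranked between 31528 and 44941 in WT, while in KO it ranked 35195, 33228 and 20840 at 0 h and had no peak at 18 h. These ranks are of the early only site, and a further variable site of Mmp9 was intermediate. The KO lists at 18 h held 29568 to 36136 intervals and could not show a rank as low as those of WT.

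Il27 (a cytokine subunit of the interleukin-12 family) and Cd80 (a costimulatory ligand of T cells) were the other list genes open early only. The best-ranked promoter of the class was that of Adhfe1. It ranked 4533 and 3355 in WT at 1 h and 3249, 5288 and 4403 in KO at 1 h. Its ranks ran from 30184 to 46902 at the other times in WT, and in KO they were 52276, none and none at 0 h and 25924, 27339 and none at 18 h. After it came Phldb1, Sbds (a ribosome maturation factor), Tmprss9, Kif1a (a kinesin motor), Nhsl1, Fjx1 and Cst7 (cystatin F, a protease inhibitor of immune cells). Phldb1 and Sbds also had a constant promoter elsewhere. Daam1 and Fam171b were the 2 members of the class with no peak in any whole list at 0 and 18 h. These 2 were named for that count.

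Of the 50 promoters gained late only, 5 belonged to the interferon-induced list, 2 to the LPS-induced effectors and 1 to the cytokines. Ifit1bl1 ranked 9675, 7198 and 11942 in WT and 4811, 15918 and 5694 in KO at 18 h. At 0 h it ranked 38287, 32178 and 26155 in WT and 29083, 26882 and none in KO, and at 1 h it had no peak in either WT list and ranked 43135, none and 40425 in KO. The lists at 18 h stood above the rest. Both ranks at 1 h lay below all those at 0 h, while some lists at 1 h with no peak were too short to be ordered against 0 h. Slfn1, of the Schlafen family, had no peak in any list at 0 h or in WT at 1 h. It ranked 15091, 15675 and 16419 in WT at 18 h and 12512, 13809 and 9496 in KO at 18 h, and its only other rank was 59664 in KO at 1 h.

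Cfb, the complement factor B, was alike. It had no peak at 0 h, ranked none and 35833 in WT and 57403, none and 40203 in KO at 1 h, and ranked 13665, 14090 and 11591 in WT and 12936, 17751 and 12101 in KO at 18 h. Oas1a, Tgtp2, Ifi47, Fpr1 and Fpr2 (receptors for bacterial formyl peptides) and a further site of Il1a were also late only, as were Cmklr1 (the chemerin receptor), Adora2a (an adenosine receptor), Tekt3, BC147527 and Gm4951. Ifi47 and Cmklr1 also had a constant promoter elsewhere. Gbp10, Hacl1 and Ms4a4c, named because they make up the whole count, had no peak in any deposited list at 0 or 1 h.

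**Figure D3:**
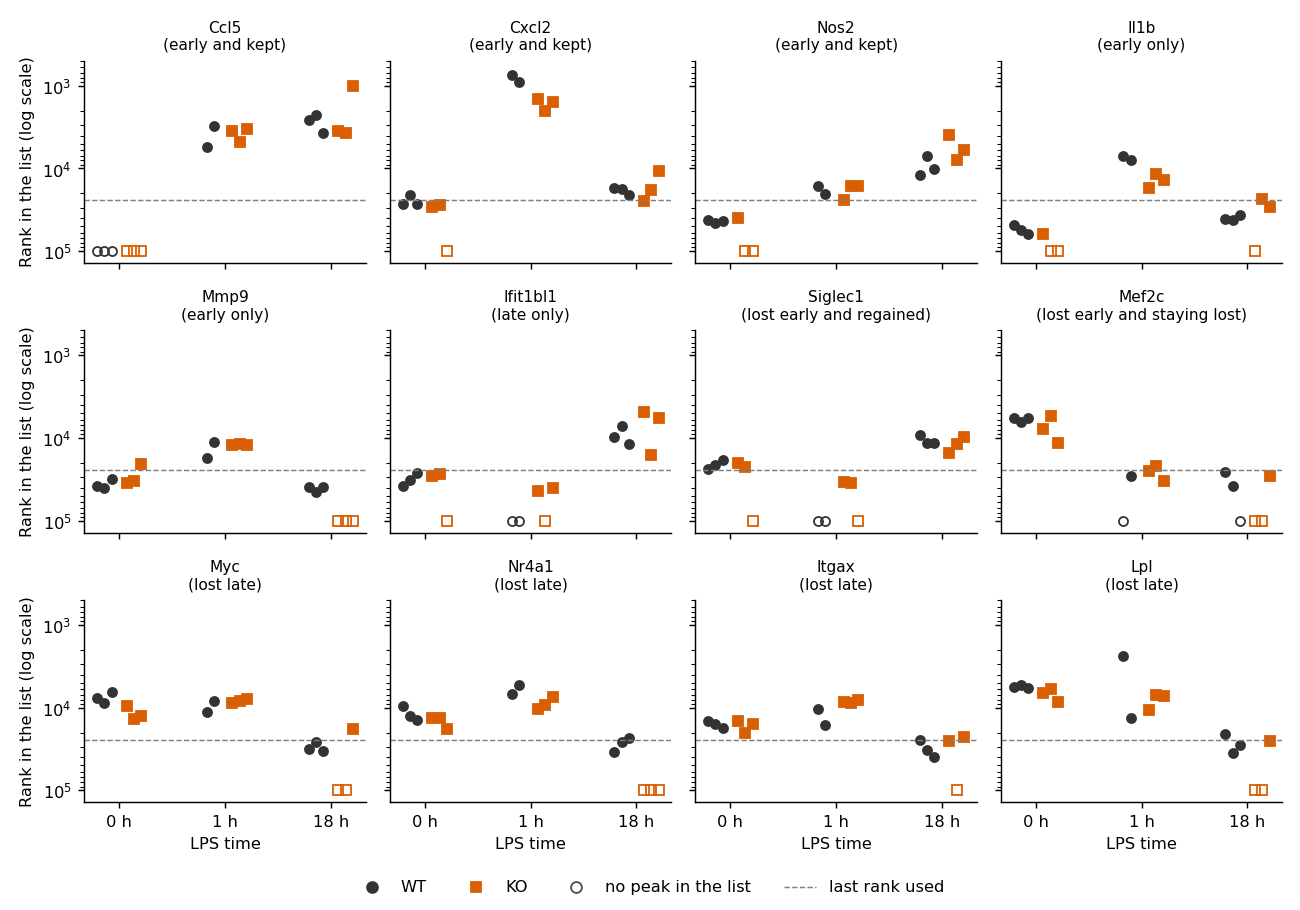
Rank of the promoter peak in the whole deposited list (y axis, log scale, inverted so that better ranks are higher) by LPS time (x axis) for 12 members. Each point is 1 list, circles are WT and squares are KO. Open symbols at the bottom mark lists with no peak, and the dashed line is the last rank used, 24389. Ccl5 has no peak at 0 h, Cxcl2 and Il1b peak at 1 h, Nos2 at 18 h, and Myc, Nr4a1, Itgax and Lpl fall at 18 h.

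Of the 316 lost promoters, 6 belonged to the list of resting macrophage receptors and lineage factors. Siglec1, the sialic acid receptor of tissue macrophages, was lost early and regained. It ranked 23636, 20978 and 18624 in WT at 0 h, had no peak in either WT list at 1 h, and ranked 9142, 11467 and 11335 at 18 h. In KO it ranked 20179, 22261 and none at 0 h, 34083, 34853 and none at 1 h, and 15030, 11812 and 9781 at 18 h. Its ranks at 18 h were above those at 0 h in every list of both genotypes. Traf3ip3, the best-ranked of the class, ranked 8302, 10807 and 10339 in WT and 10384, 10733 and 16082 in KO at 0 h. It had no peak in either WT list at 1 h, ranked 38964, 28992 and none in KO at 1 h, and ranked 10307, 11820 and 8350 in WT and 6270, 13651 and 11789 in KO at 18 h. The lists at 0 and 18 h overlapped, and all those at 1 h were lower.

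Abcg1 (a cholesterol efflux transporter), Nlrc5 (the activator of MHC class I genes) and Tfeb (the transcription factor of lysosome genes) were lost early and regained as well. So were AB124611, Cby3, Cd300c2 and Cd200r4 (paired immune receptors of myeloid cells), Ccm2 and Unc5a. Apoc1 was the only one of the 99 with no peak in any whole list at 1 h. The merged site nearest Unc5a was long, so its summit stands for only part of it.

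Mef2c led the promoters that were lost early and stayed lost. It ranked 5773, 6311 and 5753 in WT at 0 h, none and 28481 at 1 h, and 25993, 38120 and none at 18 h. In KO it ranked 7776, 5437 and 11434 at 0 h, 24898, 21989 and 32913 at 1 h, and none, none and 28759 at 18 h. All lists at 0 h stood above all others. Mef2c also had a constant promoter elsewhere. Cd36, a scavenger receptor for oxidised lipoproteins, ranked 20787, 18571 and 15395 in WT and 16677, 31361 and 21124 in KO at 0 h. Its ranks were 42283, 47587 and 32807 in WT at 18 h, it had 1 peak at 1 h, at rank 67722 in KO, and it had none in KO at 18 h. The lists at 0 h stood above all others except for KO 0 h replicate 2, which lay past the last rank used and could not be ordered against lists that ended before it. Other members of this class were Cyp27a1 (a sterol hydroxylase), Angptl2, Arpc3 (a subunit of the actin-nucleating Arp complex), Anapc15 (of the anaphase-promoting complex), Tmem53 and the histone gene Hist1h4k. Cd28 and Clec9a, T cell and dendritic cell markers in the lists here, had a promoter peak in 6 of 6 lists at 0 h and were also lost early. Arpc3 and Anapc15, like Mef2c, had a constant promoter elsewhere. Each of the 98 had a peak in at least 1 whole list at 1 or 18 h.

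Promoters that were lost late kept their peak at 1 h. Lpl, the lipoprotein lipase secreted by macrophages, ranked 5675, 5287 and 5864 in WT at 0 h, 2363 and 13237 at 1 h, and 20986, 35807 and 28337 at 18 h. In KO it ranked 6655, 5982 and 8610 at 0 h, 10620, 7043 and 7326 at 1 h, and none, none and 25479 at 18 h. Its 11 lists at 0 and 1 h were all above the 6 at 18 h. Myc was alike, with ranks of 7648, 8712 and 6450 at 0 h, 11458 and 8250 at 1 h and 32049, 25762 and 33935 at 18 h in WT. In KO they were 9545, 13883 and 12594 at 0 h, 8843, 8225 and 7890 at 1 h, and none, none and 17945 at 18 h. Again no list at 18 h reached those at 0 or 1 h.

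Nr4a1, the targeted gene, kept its promoter peak in the KO lists at 0 and 1 h, at ranks from 7503 to 18317. A promoter peak does not test the deletion of the gene body, so it does not check the genotype labels. In WT the Nr4a1 promoter ranked 9621, 12757 and 14095 at 0 h, 6804 and 5398 at 1 h and 34804, 25788 and 23111 at 18 h, and in KO it had no peak at 18 h. Its ranks at 1 h were better than those at 0 h in all WT lists and in all KO lists. Itgax ranked 14489, 15791 and 17672 in WT at 0 h, 10469 and 16199 at 1 h, and 24745, 32862 and 39686 at 18 h. In KO it ranked 14378, 20253 and 15799 at 0 h, 8505, 8716 and 8090 at 1 h, and 25381, none and 22794 at 18 h, so the KO lists at 1 h stood above all the rest.

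Clec7a (the beta-glucan receptor Dectin-1), Fosl1 (an AP-1 subunit), Ccnd3 (a D-type cyclin), Fads2 (a fatty acid desaturase) and Socs2 (a cytokine signalling inhibitor) were the other list genes lost late. The best-ranked member of the class was the promoter of Lgi4, which ranked from 5185 to 9679 in the 11 lists at 0 and 1 h. At 18 h it ranked 25777, 28125 and 28256 in WT and none, none and 25277 in KO. Nfatc1 (a calcium-regulated transcription factor), Amz1, Ptprn, Cgref1 and Lrfn4 followed. Nfatc1 and Ccnd3 also had a constant promoter elsewhere. Acsbg1 was the only one of the 119 with no peak in any whole list at 18 h.

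Gene lists described the direction by function. The lists were written with earlier results of these data in view, so their counts are a description. Of 43 cytokine and chemokine genes, 14 had a variable promoter, in 16 sites, of which 7 were gained, 0 lost and 9 intermediate. Of 63 interferon-induced genes, 19 had 23 such sites, with 9 gained, 0 lost and 14 intermediate. Of 60 LPS-induced effectors and signal brakes, 13 had 15 sites, with 7 gained, 1 lost (Socs2) and 7 intermediate. Nos2, Mmp9, Il1rn, Ifi47 and Ifit1bl1 had intermediate sites besides their gained site. Over all members the shares were 8.93% gained and 15.8% lost, so these 3 lists ran against the direction of the members as a whole.

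Of 63 receptors and lineage factors of resting macrophages, 19 had 20 variable promoter sites, with 0 gained, 6 lost and 14 intermediate. Among the intermediate ones were Pparg, Mitf, Nr1h3, Msr1 and Tlr7. The AP-1, ATF and immediate-early factors had mostly constant promoters, for 25 of 30 genes, and 5 variable sites, of which 3 were lost late. All 15 genes of the NF-kB and IkB family had a constant promoter and 1, Tnip1, had a gained site besides. All 30 ribosomal protein genes had a constant promoter and 0 variable sites. Cell cycle genes had 1 lost site among 5, lysosome genes 1 lost among 3, sterol and lipid synthesis genes 1 lost among 2, and antigen presentation genes 1 gained and 1 lost among 5.

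Counted by gene, with any promoter site, 17 to 22 of the 43 cytokine and chemokine genes had a promoter peak in the lists at 0 h, 27 to 31 at 1 h and 17 to 25 at 18 h. The lists at 1 h did not overlap those at the other times. Interferon-induced genes with a promoter peak numbered 43 to 44 at 0 h, 48 to 50 at 1 h and 48 to 59 at 18 h, and neither time after LPS overlapped 0 h. Resting macrophage genes went down, from 46 to 49 at 0 h to 39 to 42 at 1 h, and stood at 33 to 49 at 18 h.

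Gained and lost promoters differed in where they lay. Among members open early only, 50.0% of sites covered the TSS, the median distance of the summit to the TSS was 503 bp and 61.2% of summits lay in introns. Among those lost, 86.9% (lost early and regained), 80.6% (lost early and staying lost) and 89.1% (lost late) covered the TSS, with a median summit distance of 85, 100 and 161 bp. Constant promoters covered the TSS in 97.6%, at a median of 81 bp. Promoters gained early and kept and gained late only were in between, with 73.5% and 76.0% covering the TSS. Overall 22.1% of members had a gene with a constant promoter elsewhere, and this share ran from 16.0% (lost late) to 34.7% (early and kept). Divergent promoters, with TSSs of different genes on both strands within 1 kb, made up 2.99% of members and 12.8% of constant promoters.

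Sequence composition also differed, and the rule did not use it. Here CpG content is the observed over expected count of CpG in the 500 bp around the summit. Its median was 0.245 in promoters open early only, 0.176 in those gained early and kept and 0.192 in those gained late only, against 0.534, 0.476 and 0.523 in the 3 lost classes in the order above and 0.801 in constant promoters. A value over 0.6 was found in 11.2% of early only, 4.08% of early and kept and 6% of late only members. It was found in 44.4%, 41.8% and 40.3% of the lost classes and in 80.4% of constant promoters. Variable sites away from promoters had a median of 0.196, close to the gained promoters. The 95% Wilson intervals of these shares in the gained and the lost classes did not overlap, but sites are not replicates of a condition and no test was made.

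Motifs within 100 bp of the summit differed by class as well. The AP-1 letters were found in 27 of 80 members open early only (33.8%, Wilson interval 24.3 to 44.6) and in 10 of 49 gained early and kept (20.4%, 11.5 to 33.6), against 4.63% of all 11047 promoter sites. They were in 6% of late only members, 13.4% (8.45 to 20.7) of those lost late, 2.02% of those lost early and regained and 4.08% of those lost early and staying lost. Mmp9 above has them, 1 of the 27. NF-kB letters were in 20.4% (11.5 to 33.6) of early and kept and 13.8% of early only members, against 4.16% of all promoter sites and 2.02% to 4.2% of the lost classes.

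ISRE letters, as in Ifit1bl1 above, were in 18% (9.77 to 30.8) of late only members and 16.3% (8.51 to 29.0) of those gained early and kept, against 5% of early only members and 2.21% of all promoter sites. C/EBP letters, as in Nos2 above, were in 38% (25.9 to 51.8) of late only and 28.6% (17.8 to 42.4) of early and kept members, against 8.78% of all promoter sites. The SP letters of CpG-rich promoters were in 24.2% to 28.6% of the lost classes and in 4% to 17.5% of the gained ones, and in 35.8% of all promoter sites. NBRE letters (AAAGGTCA), the monomer element of Nur77, were in 0.798% of members and in 0.579% of all promoter sites. CRE (TGACGTCA) letters were in 1.35% of members and 2.47% of all promoter sites, and ETS (CCGGAAGT) letters in 2.45% and 5.91%. A match is a description of the letters and not of bound factor.

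These motifs were shared with variable sites of the same time class away from promoters. There, AP-1 letters were in 28.1% of early only and 24.6% of early and kept sites, and NF-kB letters in 13.6% and 18.5%. C/EBP letters were in 31.5% of late only sites away from promoters. The intervals of the members overlapped these values. AP-1 letters were in 29.1% (25.5 to 33.1) of sites lost late away from promoters, above the members lost late. ISRE letters were in 6.94% (5.33 to 8.99) of late only sites there, below the late only members. SP letters were in 0.616% to 5.75% of the 6 classes away from promoters. No test was made of these differences.

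**Figure D4:**
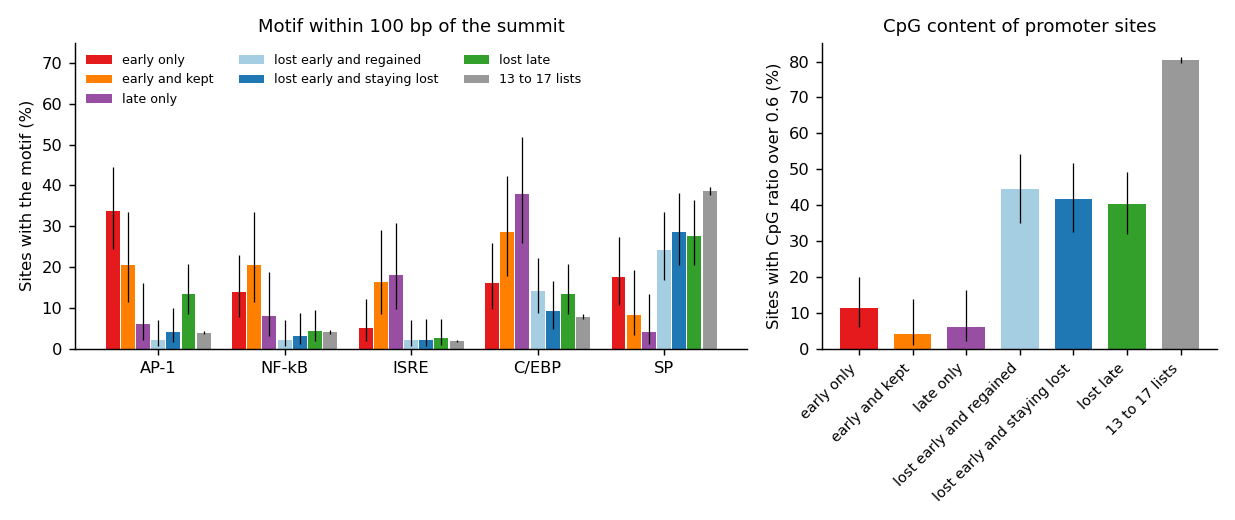
Left, share of promoter sites (y axis, %) with each of 5 motifs within 100 bp of the summit, by time class (colours). Right, share of sites with a CpG ratio, observed over expected, of more than 0.6. Bars carry 95% Wilson intervals over sites, and grey is constant promoters in 13 to 17 lists. AP-1 is highest in early only members (33.8%), C/EBP in late only members (38%), and CpG-rich sites make up 4.08% to 11.2% of the gained and 40.3% to 44.4% of the lost classes.

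Classes were also picked on the lists of one genotype, with a peak in all lists of the carrying times and in none of the others, and read in the other genotype. In 6 of these 12 tests the limit of 12 lists could not act, because the picked lists left room for a peak in every read list. Sites open early only in all WT lists, 79 in number, carried a peak in KO in 74.7% ± 4.56 (SD, n = 3) of sites at 1 h and in 9.49% ± 4.51 (n = 6) at the other times. The difference was 65.2 percentage points (two-sided exact permutation p = 0.0119, the lowest that these lists allow). Adjusted by Benjamini-Hochberg over the 12 tests of this kind, this exact permutation p was 0.0214. For the 71 sites gained late only in WT the difference in KO was 56.1 points, and for the 88 lost early and staying lost it was 55.1, both with the same exact permutation p and adjusted p. Sites picked in KO and read in WT gave 73.8 points for the 49 early only (exact permutation p = 0.0357, adjusted p = 0.0357), 79.7 for the 23 late only and 59.2 for the 57 lost early and staying lost (both exact permutation p = 0.0179, adjusted p = 0.0214).

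In the other 6 tests the limit removed promoters with a peak in most of the read lists, so the differences over members were larger than those over all promoter sites that met the choice. Over members they were 74.8 points (early and kept), 48.7 (lost early and regained) and 73.1 (lost late) for sites picked in WT, and 85.2, 90.2 and 68.3 for sites picked in KO. Without the limit, a setting added after the data were seen, WT gave 72.2 points over 48 sites early and kept, 35.1 over 233 sites lost early and regained and 71 over 92 sites lost late (each exact permutation p = 0.0119, adjusted p = 0.0214). Picked in KO, they were 78.5 over 31 sites early and kept and 51.7 over 95 sites lost late (both exact permutation p = 0.0179, adjusted p = 0.0214), and 67.1 over 37 sites lost early and regained (exact permutation p = 0.0357, adjusted p = 0.0357). The lists at 1 h, where the regained class had no peak in WT, carried one in 42.3% ± 1.31 (SD, n = 3) of its 233 sites in KO. In all 12 tests without the limit the lists of the carrying times lay above all other lists. A difference in size between the genotypes was not tested here.

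**Figure D5:**
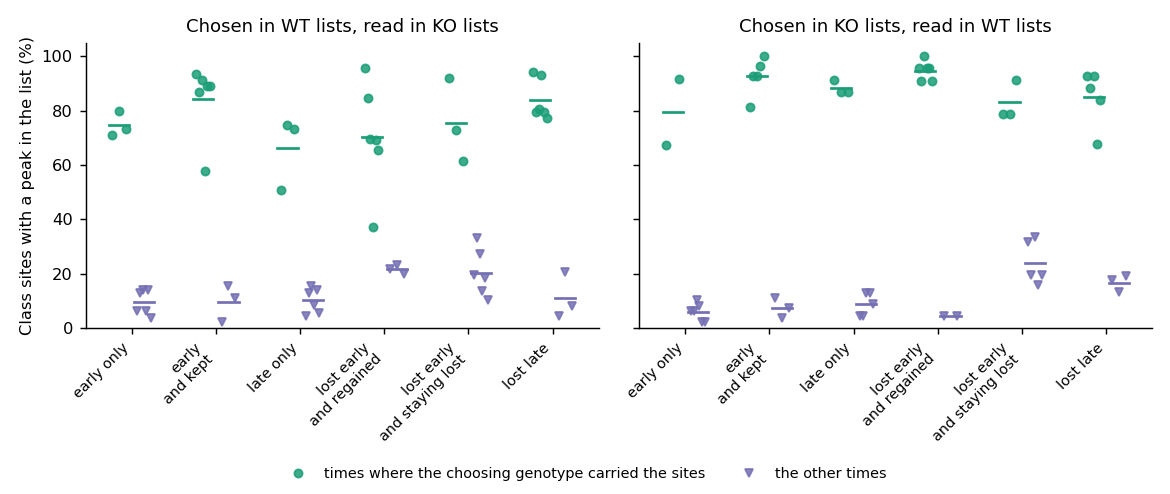
Share of class members with a peak (y axis, %) in each list of the genotype that did not choose them, by time class (x axis). Circles are lists at the times where the choosing genotype carried the sites, triangles are the other times, and lines are means. In all 12 classes every circle lies above every triangle, with the limit of 12 lists in place, which enlarges the gap for early and kept, lost early and regained and lost late.

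Few members differed between genotypes in all lists of a time. At 0 h, 18 of the 2004 members had a peak in all 3 WT and no KO list (background over all sites 0.595%), and 20 in all KO and no WT list (0.337%). At 1 h, with 2 WT lists, there were 37 (0.811%) and 38 (1.23%). At 18 h there were 53 (1.33%) and 5 (0.278%), while the WT lists at 18 h held 46364 to 61492 intervals and the KO lists 29568 to 36136. As shares of the members, all but the last stood above the background, which includes constant sites. Of the 14894 variable sites away from promoters, the counts in the same order were 170 and 89, 209 and 247, and 310 and 81. The shares of members lay on both sides of the shares of these sites. Among the best peaks, Trim30d, an interferon-induced gene, had a promoter peak in all WT and no KO list at 0 and 1 h. At 18 h it had one in 3 WT and 2 KO lists. In the whole lists Trim30d had a promoter peak in 1 KO list at 0 h and in 0 at 1 h.

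Cxcl1, a neutrophil chemokine next to Cxcl2, had one in both WT lists at 1 h and in 0 of 3 KO lists among the best peaks, but in all 3 whole KO lists. Ctsk (cathepsin K) was carried in all WT and no KO list at 0 h, and Ifi213 (interferon-induced) in all WT and no KO list at 18 h. These counts are of the best peaks. In the whole lists Ctsk had a peak in 1 KO list at 0 h and Ifi213 in 0 at 18 h. The 5 promoters with a peak in all KO and no WT list at 18 h, named for that count, were Nfam1, Bpi (a bactericidal protein that binds LPS), Cfap46, Gcnt7 and Synj2bp. In the whole lists 4 of these 5 had a peak in every WT list at 18 h too.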

How the data were processed

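ATAC-seq reads of 17 BMDM samples were trimmed by the authors (cutadapt 2.6, per the labels) and mapped to mm10, and peaks were called in each sample separately. Whether the WT 1 h sample labelled replicate 1-2 is itself a pool is not stated. The deposited lists give the fold of pileup over background, a ratio, and the −log10 p-value and −log10 q-value of each summit. They hold no counts, so the authors' DiffBind 3.0.15 comparison was not refitted. These values depend on the depth of a list and served only to rank its peaks.

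Identical intervals were collapsed to the best p-value. The best 24389 of each list were merged (at least 1 bp of overlap). TSSs came from protein-coding transcripts of GENCODE M21 (GRCm38), and a site was named by the TSS nearest to the summit of its best-ranked peak. Named genes were the 8 members with the best mean rank per class and every member in a class whose gene was in a gene list, and a few were named for a count, as the text says. A gene that this rule names is not reported here. Members, classes and gene lists were chosen with earlier results of these data known. Differences between lists were tested by two-sided exact permutation tests, with Benjamini-Hochberg adjustment over 12 tests and a threshold of 0.05. Motif and CpG shares carry 95% Wilson intervals, which cover counting error only. The deviations of same-numbered samples had correlations from -0.02 to 0.07. With so few lists per group, this cannot exclude that numbers pair samples. The tests were unpaired, and a replicate block was also run for KO lists. Python 3.11.15, numpy 2.4.6, pandas 2.3.3, scipy 1.17.1 and matplotlib 3.10.9 were used, and the class, merging and permutation steps were tested on simulated data.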

Additional observations from a re-analysis of the deposited data

Results flagged for a closer look

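At 18 h against 1 h, 3 members moved in opposite directions in the 2 genotypes, gained in every WT list and lost in every KO list, and this difference was not tested. They were the promoters of Slc24a3 (a potassium-dependent sodium and calcium exchanger), Thtpa (a thiamine triphosphatase) and Akap17b. Each had a used peak in 3 of 3 WT lists at 0 h, 0 of 2 at 1 h and 3 of 3 at 18 h, and in KO in 3 of 3, 3 of 3 and 0 of 3. In the whole lists each had a peak in 1 of the 2 WT lists at 1 h, and in KO at 18 h Slc24a3 and Thtpa had one in 1 list and Akap17b in 2. Between 0 and 1 h and between 0 and 18 h there were 0 such members. Groups of 2 or 3 lists were too small for a search for single outlying samples.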

How the results depend on the processing

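With the best 20000 peaks, a −log10 q-value of at least 5, ties broken at random, 500 bp to a TSS, or distance taken from the summit, all 19 results kept their direction and side of the threshold, and counts stayed within 1.5 times. The best 10000 peaks gave 31 early and kept and 77 lost late members, and a difference of 40.4 points for sites lost early and regained in WT (adjusted p = 0.0595, exact permutation).

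All deposited intervals gave 4145 members, with 24 early only, 7 early and kept, 20 late only, 31 lost early and regained and 48 lost late. Sites chosen in WT then gave 26.4 points for late only, -6.6 for lost early and regained, a reversal, and 23.9 for lost early and staying lost. Those chosen in KO gave 26.6 for early only, 100 for lost early and regained (1 site), 64 for lost early and staying lost (5 sites) and 26.5 for lost late. None of these 7 passed the threshold. Lists of unequal length were compared there, and further causes were not tested.

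Where peaks had to cover at least 0.5 of a site, there were 7516 members, with 45 early only, 5 early and kept, 24 late only, 181 lost early and regained, 182 lost early and staying lost and 12 lost late. In the same order, sites chosen in WT gave 62.3, 66.7, 13.3, -0.71 (reversed), 37.2 and 83.3 points. Sites chosen in KO gave 37.8 for early only, 60.6 for lost early and staying lost and -1.96 (reversed) for lost late, and no site was left for the other 3. None passed the threshold. The cause was not tested, but median peak widths ran from 167 to 1241 bp.

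All-or-none classes held 25 early only, 16 early and kept, 13 late only, 18 lost early and regained, 8 lost early and staying lost and 23 lost late members. Absence from the whole lists left 6, 1, 8, 2, 0 and 3, since longer lists hold more peaks.

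Exchanging times only within a replicate block, among KO lists of the same number, kept all 6 differences at the smallest exact permutation p of 27 regroupings (adjusted p = 0.037), from 48.7 to 74.8 points. The block was not run for WT, whose replicate 1-2 shares no number.

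Without each list in turn, members numbered 80 to 102 early only, 49 to 58 early and kept, 51 to 74 late only, 99 to 148 lost early and regained, 104 to 133 lost early and staying lost and 119 to 145 lost late. In the same order, sites chosen in WT gave 43.7 to 67.1, 67 to 80.1, 48.6 to 63.8, 42.4 to 55.3, 46.8 to 62.1 and 64.9 to 77.8 points, and sites chosen in KO 61.6 to 86.1, 81.6 to 88, 58 to 81.5, 73.3 to 90.9, 47.6 to 61.5 and 61.8 to 72.7. The early only and the lost early and regained sites chosen in KO did not pass without WT 1 h replicate 1-2 or replicate 3, where 1 WT list at 1 h is left and no exact permutation p can be below 0.143.

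Without the upper limit of 12 lists, an alternative chosen after seeing the data, all 12 differences kept their direction and side of the threshold, from 35.1 to 79.7 points.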
